A study of Caenorhabditis elegans with 36 samples.

Results

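Lsy-6, miR-124, miR-234 and miR-791 are 4 Caenorhabditis elegans miRNAs known for expression in neurons. They were taken by name from the deposited table, which lists both strands (5p and 3p) of each hairpin, so that 8 of its 437 mature miRNA strands were members. The miRNAs were chosen for their known sites of expression and not for a measured value, but with earlier results of these data known.

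Small RNA from whole animals was sequenced every hour from 25 to 42 h after synchronized L1 larvae were plated at 25 °C, with 1 library per hour and strain. The wild-type strain N2 (WT) and strain HW3527, which carries the ebax-1(tm2321) allele on chromosome IV, gave 18 libraries each, 36 in all. No treatment was given to either strain, and no transgene was named for either. EBAX-1 is a substrate receptor of an E3 ubiquitin ligase and has been implicated in the decay of miRNAs. That targets direct this decay in worms rests, as the study states, on analogy to mammals and flies. The comparison asked which miRNAs differ without EBAX-1. The ebax-1 transcript is not a miRNA, so the genotype could not be checked in these libraries. The mutant develops about 3 h later than WT, and the study shifted its time axis by that interval. Strain comparisons here therefore set WT at 25 to 39 h against the mutant at 28 to 42 h, which makes 15 aligned hours and 30 libraries.

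A miRNA is cut from a hairpin precursor, and the strand that is loaded into Argonaute, the guide, accumulates while its partner is mostly lost. Several worm miRNAs are made in small sets of neurons. Lsy-6 is made in the left ASE taste neuron, where it represses cog-1 and so fixes the left-right difference between both ASE cells. MiR-124 is conserved across animals and is found in ciliated sensory neurons of the worm, miR-234 is the worm relative of miR-137 and has been linked to neuropeptide release, and miR-791 acts in the neurons that sense CO2. In whole-animal RNA, fewer cells of a type and less of a miRNA per cell cannot be told apart.

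In the WBcel235 annotation, the lsy-6 gene lies on the plus strand of chromosome V and the miR-791 gene on the plus strand of chromosome X, and neither overlaps another annotated gene. The miR-124 gene lies on the plus strand of chromosome IV, in an intron of trpa-1, a TRPA channel gene of the same orientation, and overlaps the antisense noncoding RNA C29E6.8. It shares that chromosome with ebax-1. The miR-234 gene lies on the minus strand of chromosome II and overlaps only the antisense noncoding RNA C13B4.6.

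All members were scarce, but 5 of the 8 passed the filter on low counts, namely lsy-6-3p, miR-124-3p, miR-234-3p and both strands of miR-791. Levels are given as CPM, read counts in 1000000 of the library's total, as the lowest, median and highest of 18 libraries. MiR-124-3p ranged over 30.2, 49.5 and 105.6 CPM in WT and 37.3, 56.5 and 95.04 CPM in the mutant. Its median ranked 143 of 437 strands in WT and 135 in the mutant. MiR-791-5p ranged over 9.48, 25.9 and 42.3 CPM in WT and 11.6, 19.9 and 32.9 CPM in the mutant. Lsy-6-3p ranged over 5.53, 12.1 and 23.8 CPM in WT and 4.59, 7.28 and 13.6 CPM in the mutant. These 3 strands overlapped between the strains over the whole course. MiR-234-3p was the lowest of the guides, with 2.27, 4.21 and 9.92 CPM in WT and 1.45, 3.11 and 8.09 CPM in the mutant. The order miR-124-3p, miR-791-5p, lsy-6-3p, miR-234-3p held for the medians of both strains, although the ranges of neighbours in that order overlapped, apart from miR-124-3p and miR-791-5p in the mutant, where the lowest miR-124-3p value (37.3 CPM) lay above the highest of miR-791-5p (32.9 CPM).

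These levels rested on few reads. Libraries held 2832088 to 5579822 counts in WT and 3720038 to 8060155 in the mutant. A median library of WT held 185 counts of miR-124-3p, 90.5 of miR-791-5p, 44.5 of lsy-6-3p and 15 of miR-234-3p. Counting alone then gives a relative error of 7.35%, 10.5%, 14.99% and 25.8% for 1 library, so that single hours of miR-234-3p carry little weight. The mutant library at 34 h stood furthest from its neighbours in time, with a median absolute log2 distance of 0.29 over the miRNAs kept, against 0.23 for the next, and the main strain values that contain it are also given without it.

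**Figure D1:**
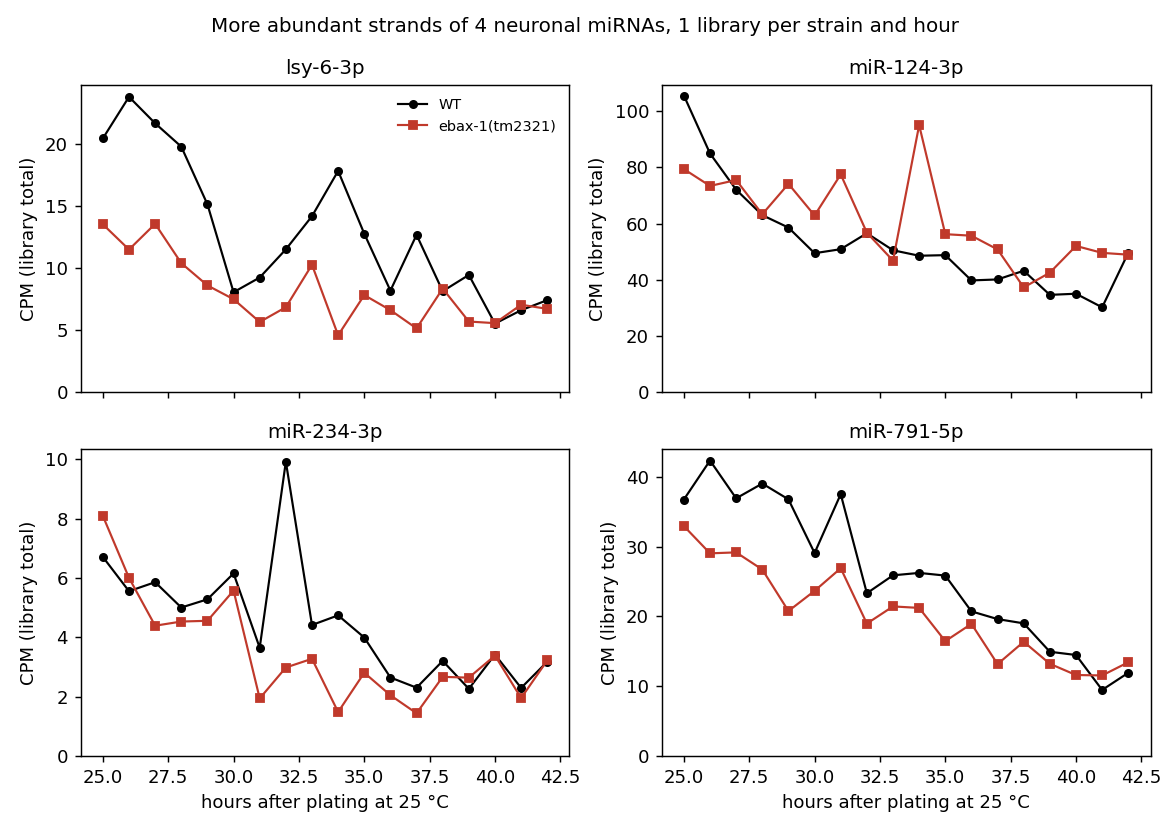
CPM by library total (y axis) against hours after plating (x axis) for the more abundant strand of each hairpin, with WT as black circles and the ebax-1(tm2321) mutant as red squares and 1 library per point. By clock hour, with no shift of the mutant, lsy-6-3p started at 20.5 CPM in WT and 13.5 CPM in the mutant. It stood at 7.43 and 6.72 CPM at 42 h. The highest mutant value of miR-124-3p, 95.04 CPM, is the library at 34 h.

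The annotated guide was by far the more abundant strand for lsy-6, miR-124 and miR-234. Over all 18 WT libraries lsy-6 gave 9 counts of 5p and 961 of 3p, and the mutant gave 14 and 778. The 5p share was 0.928% in WT (95% exact binomial interval 0.425 to 1.75) and 1.77% in the mutant (0.970 to 2.95), and 12 of 18 libraries of each strain held no lsy-6-5p read. MiR-124-5p made up 1.88% of the miR-124 reads in WT (1.48 to 2.35; 75 of 5p and 3919 of 3p) and 1.08% in the mutant (0.836 to 1.37; 66 and 6046). MiR-234-5p was counted 4 times in WT and 3 times in the mutant, with 15 of 18 libraries of each strain at 0. These intervals cover counting error only. The 3 scarce strands, lsy-6-5p, miR-124-5p and miR-234-5p, did not pass the filter and were not tested, and their highest values were 0.941, 2.68 and 0.358 CPM.

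MiR-791 differed from the other hairpins in its strand use. Its 5p strand was the more abundant one, with 1951 counts of 5p and 310 of 3p in WT and 1996 and 352 in the mutant. The 3p strand therefore held 13.7% of the reads in WT (12.3 to 15.2) and 14.99% in the mutant (13.6 to 16.5). The count ratio of 5p to 3p in a library had a lowest, median and highest value of 3, 6.89 and 19.4 in WT and 3.89, 5.36 and 11.2 in the mutant, so that the strains overlapped. The log2 ratio was lower in the mutant by -0.31 ± 0.13 (SE; limma, adjusted p = 0.0436), which missed the threshold of 0.01, whereas 37.2% of the 86 hairpins with both strands kept passed it in either direction. Without the mutant library at 34 h it was -0.27 ± 0.13.

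**Figure D2:**
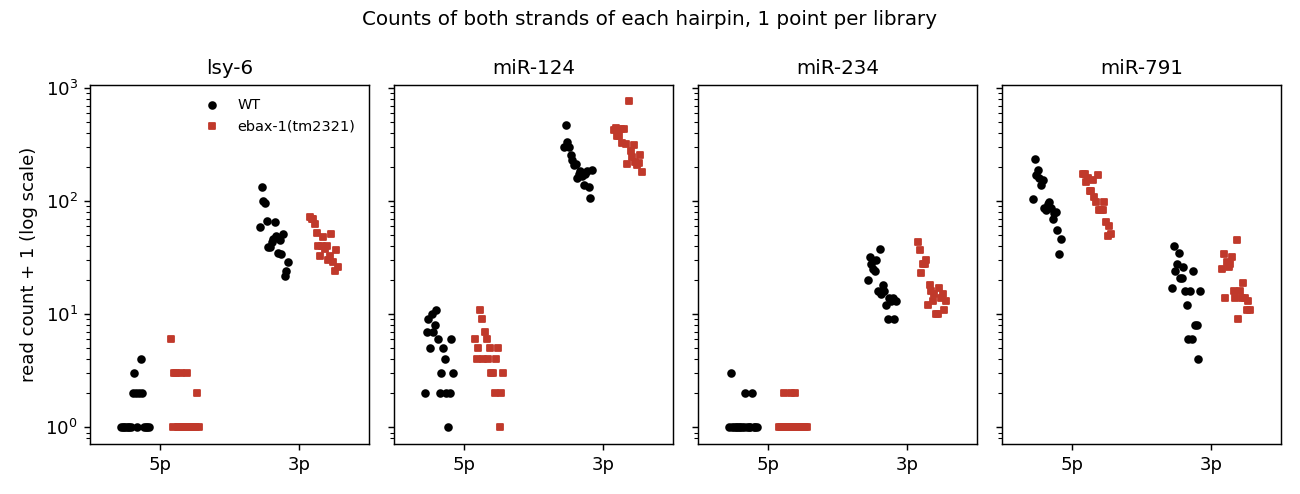
Read count plus 1 on a log axis for the 5p and 3p strands of each hairpin, with 1 point per library, WT as black circles and the mutant as red squares, ordered by hour within each column from left to right. The 3p strands of lsy-6, miR-124 and miR-234 lie above their 5p strands, while miR-791 has its 5p strand above 3p by a median of 6.89 times in WT and 5.36 times in the mutant.

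All 5 tested members had a lower estimate at the end of the course than at its start in both strains. The first 3 and last 3 hours were compared within each strain by edgeR's quasi-likelihood test with Benjamini-Hochberg adjustment at 0.01, the threshold of every test here, with neighbouring hours in place of replicates. These tests scale libraries by TMM factors, which in WT were 1.18 at 25 h and 0.94 at 42 h. The CPM values use library totals, so the tested log2 changes are not those of the CPM means. The fall passed for 3 of 5 strands in WT and 1 of 5 in the mutant, where 29.1% and 26.2% of the 244 strands tested were called lower. The median of all strands changed by -0.15 in WT and -0.07 in the mutant on the log2 scale, and the median of the 5 members by -1.09 and -0.78.

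Lsy-6-3p fell most in WT, from 22.01 ± 1.70 CPM (SD, n = 3) at 25 to 27 h to 6.52 ± 0.95 CPM at 40 to 42 h. In the mutant it went from 12.9 ± 1.19 to 6.45 ± 0.78 CPM. By clock hour, with no shift of the mutant, the strains lay apart at the first 3 hours and overlapped at the last 3. The first 3 held 20.5 to 23.8 CPM in WT and 11.5 to 13.6 CPM in the mutant. By aligned hour the last values did not overlap. WT at 37 to 39 h held 12.7, 8.15 and 9.46 CPM, and the mutant at 40 to 42 h held 5.57, 7.05 and 6.72 CPM. With TMM scaling the log2 change was -1.46 ± 0.31 (SE) in WT (edgeR, adjusted p = 0.000663) and -0.78 ± 0.25 in the mutant (adjusted p = 0.012), which missed the threshold. With library totals the log2 changes were -1.75 in WT and -0.99 in the mutant. The difference between these changes was not tested.

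MiR-791-5p went from 38.6 ± 3.17 to 11.97 ± 2.50 CPM (SD, n = 3) in WT and from 30.4 ± 2.21 to 12.2 ± 1.07 CPM in the mutant. It was the member that fell in both strains, by log2 changes of -1.39 ± 0.21 in WT (edgeR, adjusted p = 3.31e-05) and -1.10 ± 0.16 in the mutant (adjusted p = 2.01e-05). Its partner strand miR-791-3p had estimates of -1.09 ± 0.52 and -0.55 ± 0.40 and passed in neither strain (adjusted p = 0.0754 and 0.226).

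MiR-124-3p went from 87.5 ± 16.9 to 38.3 ± 10.1 CPM (SD, n = 3) in WT and from 76.1 ± 3.05 to 50.2 ± 1.64 CPM in the mutant. The log2 change with TMM scaling was -0.88 ± 0.16 in WT (edgeR, adjusted p = 0.00015) and -0.39 ± 0.21 in the mutant (adjusted p = 0.1). The SE takes its spread from all 18 libraries of a strain, in the mutant also the outlying one at 34 h. In the mutant the first hours held 73.4 to 79.4 CPM and the last 48.9 to 52.03 CPM, without overlap. The missed threshold does not show an unchanged level. With library totals it was -1.19 in WT and -0.60 in the mutant. MiR-234-3p went from 6.04 ± 0.60 to 2.97 ± 0.59 CPM in WT and from 6.16 ± 1.85 to 2.86 ± 0.78 CPM in the mutant, where neither log2 change passed (-0.70 ± 0.31, adjusted p = 0.055, and -0.91 ± 0.32, adjusted p = 0.0193).

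**Figure D3:**
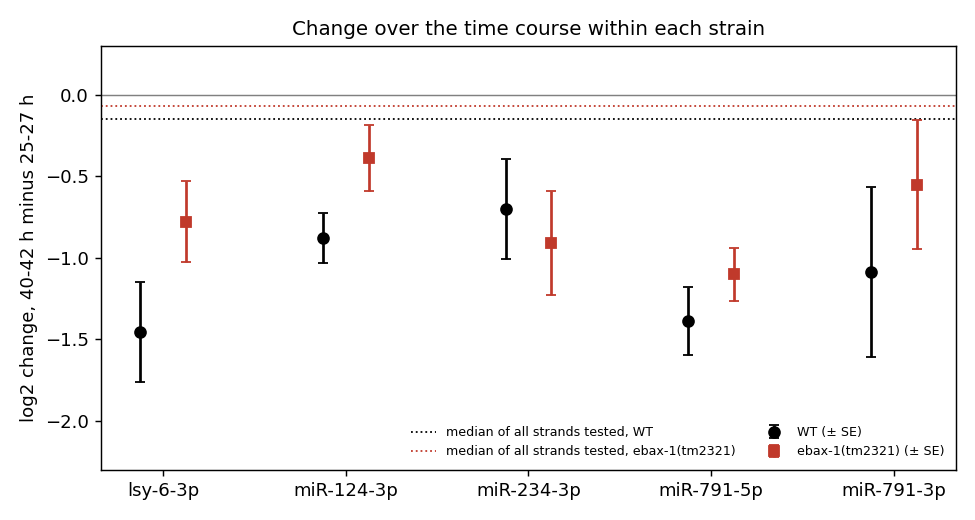
Log2 change from 25-27 h to 40-42 h (y axis, ± SE) for the 5 strands tested (x axis), in WT as black circles and the mutant as red squares, with dotted lines at the median of all 244 strands. The points lie between -1.46 and -0.39, below both dotted lines at -0.15 and -0.07.

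A test of any change along a smooth curve of time, which does not need the ends to differ, passed for 3 of 5 members in WT and 2 of 5 in the mutant. Most strands of the table passed it, 71.3% in WT and 57.8% in the mutant, so these counts do not mark the neuronal miRNAs. In WT the adjusted p was 3.17e-06 for miR-124-3p, 3.02e-05 for miR-791-5p, 0.000594 for lsy-6-3p, 0.0624 for miR-234-3p and 0.121 for miR-791-3p (edgeR). In the mutant it was 0.00017 for miR-791-5p, 0.00546 for miR-234-3p, 0.0403 for lsy-6-3p, 0.222 for miR-124-3p and 0.432 for miR-791-3p. For miR-124-3p it was 0.0723 without the mutant library at 34 h (edgeR). Over all fits that left out 1 library it ran from 0.0176 to 0.481. The mutant call of miR-234-3p was lost in 7 of 18 fits that left out 1 library (25, 26, 27, 28, 34, 36 or 41 h), with an adjusted p up to 0.0545 without 25 h, where it had its highest value of 8.09 CPM. The WT call of lsy-6-3p was lost with a spline of 4 components in place of 6 (adjusted p = 0.0135).

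Lsy-6-3p in WT did not fall evenly. It was at 23.8 CPM at 26 h, 8.06 CPM at 30 h, 17.9 CPM at 34 h and 8.19 CPM at 36 h, which were 133, 38, 64 and 34 counts. The mutant held 10.4 CPM at 28 h, 5.66 CPM at 31 h, 10.3 CPM at 33 h and 4.59 CPM at 34 h, so that it also fell and rose between single hours, at lower levels. Many larval transcripts rise and fall once per molt, and the rhythm was therefore tested with a cosine and sine of 7 h period plus a line over 11 hours, 25 to 35 h in WT and 28 to 38 h in the mutant. In WT, 1 of the 5 members passed, lsy-6-3p, with an amplitude of 0.61 on the log2 scale, a first peak at 27.0 h and an adjusted p of 0.00391 (edgeR), against 9.43% of all strands tested.

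In the mutant the amplitude of lsy-6-3p was 0.06 (adjusted p = 0.982), and 0 of the 5 members passed by edgeR, none with an unadjusted p under 0.05. There 0% of all 244 strands passed by edgeR (37 with an unadjusted p under 0.05; 9 by DESeq2 and 0 by limma), and 10 passed by edgeR with a period of 8 h, none of them a member. The difference in rhythm between the strains, a test added after the data were seen, gave p = 0.0055 for lsy-6-3p before and 0.111 after adjustment by edgeR. It passed for 0 of the 5 members and 0% of 243 strands (37 with an unadjusted p under 0.05; 4 by DESeq2 and 1 by limma). A rhythm in WT that was missing in the mutant was therefore not shown to differ between them, and the WT call itself was lost with a period of 6 h (adjusted p = 0.158) or without the WT library at 26, 30, 31, 32 or 34 h (0.0106 to 0.0207).

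The strains were then compared over the aligned hours. Lsy-6-3p and miR-791-5p were lower in the mutant, miR-234-3p and miR-124-3p missed the threshold in opposite directions, and miR-791-3p gave no call. Averaged along a curve of aligned time, 2 of 5 members passed as lower and 0 as higher by edgeR, where 26.6% of 241 strands were called lower. The median difference was -0.46 for the 5 members and -0.03 for all strands. Over all strands, 58 were called higher and 64 lower with TMM, and 34 and 116 with library totals.

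Lsy-6-3p was lower in the mutant at 14 of 15 aligned hours, by a log2 difference of -0.76 ± 0.13 (SE) or 0.589-fold (edgeR, adjusted p = 1.83e-05), and its estimate was the 10th lowest of 241. Without the mutant library at 34 h the difference was -0.68 ± 0.12. Aligned 30 h, where WT had the lowest of its 15 values, went the other way.

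MiR-791-5p was lower at 15 of 15 aligned hours, by -0.46 ± 0.07 or 0.729-fold (edgeR, adjusted p = 5.91e-06), and by -0.41 ± 0.07 without the mutant library at 34 h. Compared at the same clock hours, with no shift of the mutant, the difference was -0.13 and missed the threshold (adjusted p = 0.0704). MiR-791-3p differed by -0.18 ± 0.18 (adjusted p = 0.383).

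MiR-234-3p had an estimate of -0.49 ± 0.18 (edgeR, adjusted p = 0.0164) and was lower at 10 of 15 aligned hours. Without the mutant library at 34 h, where it had 1.49 CPM, the estimate was -0.36 ± 0.17 (adjusted p = 0.0695). MiR-124-3p had an estimate of 0.28 ± 0.09 or 1.21-fold (adjusted p = 0.0121) and was higher at 13 of 15 aligned hours with TMM scaling, but at 8 of 15 in the authors' log2 values, which are scaled by library totals. The median of all strands shifted from -0.03 with TMM to -0.23 with library totals, and miR-124-3p then differed by 0.08 (adjusted p = 0.467). Without the mutant library at 34 h, its highest at 95.04 CPM, it was higher by 0.26 ± 0.07 and passed (adjusted p = 0.00308).

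**Figure D4:**
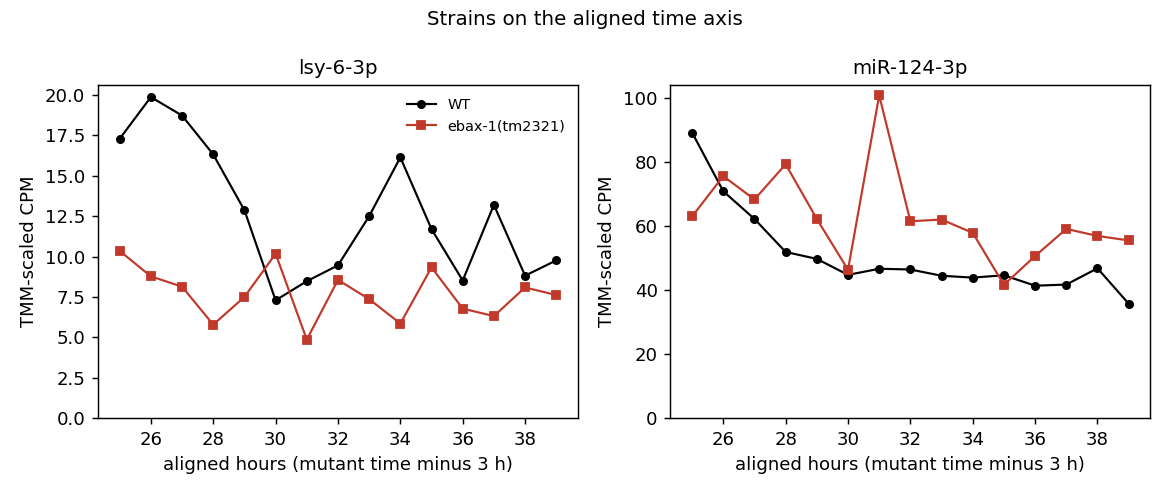
TMM-scaled CPM (y axis) of lsy-6-3p and miR-124-3p against aligned hours (x axis, mutant time minus 3 h), with WT as black circles, the mutant as red squares and 1 library per point. Lsy-6-3p is lower in the mutant at 14 of 15 hours and miR-124-3p higher at 13 of 15, a direction that held at only 8 of 15 hours with library totals.

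A joint test of any difference in level or course passed for 2 of 5 members, lsy-6-3p (adjusted p = 0.000494) and miR-791-5p (0.00142), where 45.2% of all strands passed (edgeR). The values of miR-124-3p, miR-234-3p and miR-791-3p were 0.0146, 0.0453 and 0.838. The call of miR-791-5p was lost in 16 of 30 fits that left out 1 library (adjusted p up to 0.0184), without a filter (0.0929) and without a shift of the mutant (0.259), while that of lsy-6-3p held in each of these. Without the mutant library at 34 h the values were 0.00125 for lsy-6-3p, 0.00555 for miR-791-5p, 0.00754 for miR-124-3p, which then passed, and 0.188 for miR-234-3p. The test of a difference in course alone passed for 0 of 5 by edgeR, none of them with an unadjusted p under 0.05, where 7.47% of all strands passed, and the adjusted p ran from 0.189 for miR-124-3p to 0.911 for miR-791-3p. DESeq2 and limma, run as alternatives, also called none of the 5.

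By windows of aligned time, the largest difference of lsy-6-3p was in the earliest. At 25 to 29 h it was -1.14 ± 0.22 (edgeR, adjusted p = 0.000549), the 2nd lowest estimate of 241 strands, and 2 of 5 members were called lower where 13.3% of all strands were. At 30 to 35 h it was -0.57 ± 0.22 (adjusted p = 0.0402), or -0.45 ± 0.22 without the mutant library at 34 h (adjusted p = 0.109), and at 36 to 39 h -0.48 ± 0.28 (adjusted p = 0.215). The test of a difference in course, with an adjusted p of 0.338, did not show that these windows differ.

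MiR-234-3p had its only call in the middle window. The test of a difference in course (edgeR, adjusted p = 0.339) did not show that its windows differ. The estimate of miR-234-3p was -0.33 ± 0.21 (adjusted p = 0.217) at 25 to 29 h, -1.01 ± 0.21 (edgeR, adjusted p = 0.000899) at 30 to 35 h, the 5th lowest estimate of 241, and 0.20 ± 0.29 (adjusted p = 0.679) at 36 to 39 h. In that middle window 2 of 5 members were called lower where 14.1% of all strands were. WT held its highest value there, 9.92 CPM at 32 h from 37 counts. The window fit pairs the strains by aligned hour, so a library left out also takes its partner out of the difference. With WT at 32 h or its partner, the mutant at 35 h, left out, the difference was -0.83 and missed the threshold. It also missed it, at -0.82, with WT at 34 h or its partner, the mutant at 37 h, left out. Without the mutant library at 34 h it was -0.94 ± 0.24 and passed (adjusted p = 0.00516).

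MiR-791-5p had nearly equal estimates in the 3 windows, -0.49 ± 0.13, -0.43 ± 0.12 and -0.45 ± 0.16 (edgeR, adjusted p = 0.00595, 0.00952 and 0.0399). Its calls in the first and middle windows were narrow: they were lost in 9 of 10 and 12 of 12 fits that left out 1 library. The estimates then ran from -0.48 to -0.33 and from -0.48 to -0.23. Each of these fits also redid the filter and TMM factors, and partners in aligned time leave the difference together. A lost call is therefore not the effect of 1 library alone. Without the mutant library at 34 h the middle estimate was -0.32 ± 0.12 (adjusted p = 0.0482). In the last window 0 of 5 members passed by edgeR, 2 of them with an unadjusted p under 0.05, where 8.71% of all strands were called lower. MiR-124-3p had estimates of 0.06 ± 0.16, 0.33 ± 0.15 and 0.41 ± 0.18 and passed in none (adjusted p = 0.791, 0.0751 and 0.0943), with 0.24 ± 0.14 in the middle window without the mutant library at 34 h.

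**Figure D5:**
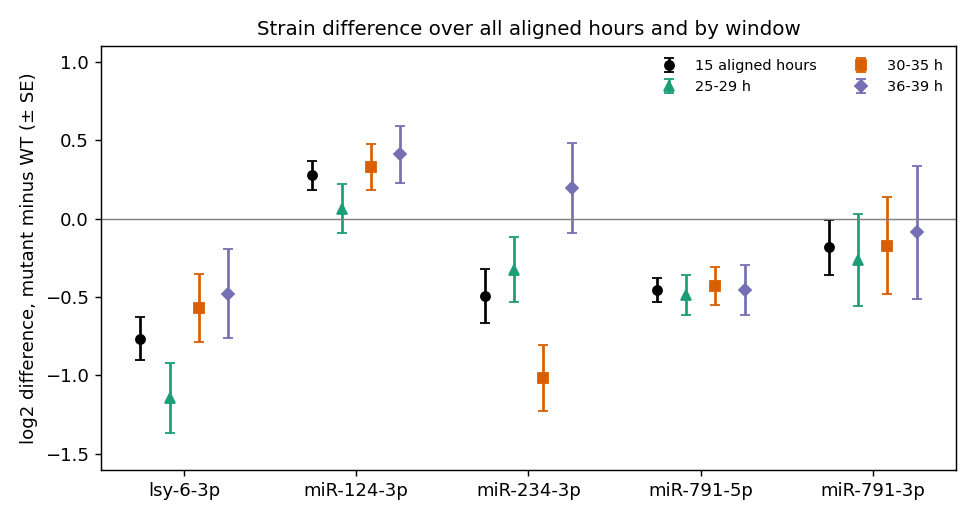
Log2 difference between the mutant and WT (y axis, ± SE) for the 5 strands tested (x axis), over all 15 aligned hours as black circles and in windows of 25-29 h (triangles), 30-35 h (squares) and 36-39 h (diamonds). Lsy-6-3p lies lowest in the first window at -1.14 and miR-234-3p in the middle window at -1.01, while miR-791-5p stays between -0.49 and -0.43.

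Other miRNAs related to these by seed or by tissue did not share 1 direction between the strains. MiR-228 and miR-790 were listed as seed relatives of miR-791, but no seeds were compared here. Of their 4 strands, miR-228-5p, miR-228-3p and miR-790-3p fell over the course in each strain and 0 rose. On the 5p arm, that of the miR-791 guide, only miR-228-5p fell. MiR-790-5p passed in neither strain (edgeR, adjusted p = 0.26 in WT and 0.939 in the mutant). Between the strains miR-228-5p, which is also abundant in glia, was higher in the mutant by 0.26 ± 0.05 (edgeR, adjusted p = 5.47e-05), opposite to miR-791-5p, and the other 3 did not pass. MiR-790-5p, a strand of a neuronal miRNA at a median of 3.47 CPM in WT and 2.13 CPM in the mutant, had an estimate of -0.61 ± 0.27 (adjusted p = 0.0483). The more abundant strand of that hairpin, miR-790-3p, had medians of 12.3 and 15.3 CPM. It differed by 0.06 ± 0.09 (edgeR, adjusted p = 0.567). Of 6 strands of other miRNAs with a neuronal role, miR-71-5p was higher by 1.21 ± 0.14, and miR-71-3p and miR-2-5p were lower by -0.55 ± 0.09 and -0.24 ± 0.07 (edgeR, adjusted p = 2.32e-08, 2.92e-06 and 0.00421). MiR-71 was examined in the study on these libraries, so its direction is not independent evidence.

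Markers of other tissues moved with strain and time in part. Body wall muscle miR-1-3p differed by -0.00 ± 0.04 (edgeR, adjusted p = 0.935), none of the 4 let-7 family strands of the seam and hypodermis passed, and intestinal miR-60-3p was lower by -0.48 ± 0.09 (adjusted p = 4.38e-05). Of the 8 miR-35 family strands, which mark the germline and embryo, 7 were kept and all 7 were higher in the mutant, with a median difference of 2.38, while miR-41-3p had medians of 0.622 and 1.38 CPM in WT and the mutant. Their summed level ran from 1106 to 32856 CPM in WT and from 9655 to 24681 CPM in the mutant. Over the course 6 of the 7 rose in WT and 1 fell, miR-42-3p (-2.11). In the mutant 0 rose and 2 fell, miR-38-3p (-0.52) and miR-42-3p (-1.07). Of all 244 strands, 25.8% rose and 29.1% fell in WT, and 23.8% and 26.2% in the mutant. The study proposes, in part from these libraries, that EBAX-1 destabilizes the miR-35 family in larvae. The strain difference of this family is therefore not read here as a measure of germline or embryo tissue. The part of tissue composition in the values of the neuronal miRNAs was not tested, and strain cannot be told apart from culture and library preparation, with 1 time course per strain.

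The patterns most like each guide were sought as a description, by Pearson's r of log2 CPM over the 36 libraries centred within strain, among 244 strands. MiR-791-5p was most like miR-228-5p (r = 0.89), miR-1022-5p (0.89) and miR-793 (0.87), and miR-124-3p most like miR-243-5p (0.84), miR-90-5p (0.81) and miR-232-3p (0.78). Lsy-6-3p followed miR-2-5p (0.74), miR-795-3p (0.71) and miR-62 (0.68), and miR-234-3p followed miR-245-3p (0.62), miR-254-3p (0.61) and miR-57-5p (0.59). The 4 guides correlated with each other by 0.29 to 0.62, a range that overlaps the best partners of miR-234-3p. The partners named above were picked as the highest, so they cannot be weighed against the guides, and all libraries share the fall over time.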

How the data were processed

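The authors sequenced small RNA from whole animals, aligned reads with Bowtie through QuasR to genome build ce10 (versions not given in the sources used here), and counted same-strand reads starting within 3 bases of the annotated 5′ end of miRBase 22 strands, with up to 100 hits per read. The deposited read counts were used for all tests. The deposited log2 values are counts scaled by the authors to the mean library total plus a pseudocount of 8, and recomputed values differed by at most 5e-04.

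Counts were analysed in R 4.3.3 with edgeR 4.0.16 (quasi-likelihood F-test, TMM factors, filter by expression with a minimum count of 10, Benjamini-Hochberg adjustment over all strands kept, threshold 0.01). Strain fits used 30 libraries in 15 aligned hours and a cubic spline of 6 components, so p-values measure scatter around curves and not between cultures. The strand ratio was fitted with limma 3.58.1 (pseudocount 8). Alternatives used limma, DESeq2 1.42.0, library totals or DESeq2 size factors, no filter, other splines, shifts and periods, and each library left out. These limma fits took log2 counts scaled by library totals plus a pseudocount of 8, with no TMM factors. With a library left out, the TMM factors were redone, and in strain fits the filter too. The procedures were tested on simulated data. Strands were named by the rule above, with the 3 most correlated strands per guide. The members and comparison lists were chosen with earlier results of these data known. The leave-outs of the time and rhythm tests and the test of rhythm between strains were added after seeing the data. Chromosomes and host genes come from WBcel235, and no coordinates are given because the builds differ.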

Additional observations from a re-analysis of the deposited data

Results flagged for a closer look

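In 24 groups of 4 to 6 libraries (each of the 4 guides in each window and strain), a single library was searched for that stood apart from the rest of its group by Dixon's criterion, which chance meets in about 1 in 20 groups. MiR-124-3p met it in 2. In WT at 30 to 35 h, the library at 32 h held 56.55 CPM by library total, next to 50.9 CPM, with 48.5 CPM at the far end of the 6. With TMM scaling that library held 46.4 CPM, below 46.6 CPM at 31 h, and was not the highest of its group. In the mutant at 33 to 38 h, which aligns with that window, the library at 34 h held 95.04 CPM, next to 56.2 CPM, with 37.3 CPM at the far end. With TMM scaling it held 100.7 CPM, next to 61.98 CPM at 36 h. The same mutant library stood furthest from its neighbours over all miRNAs.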

How the results depend on the processing

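The lower mean level of lsy-6-3p in the mutant kept its direction and call in all 10 alternatives (log2 difference -0.96 to -0.44) and with each library left out (-0.78 to -0.66), and that of miR-791-5p in all but the comparison without a shift of the mutant (-0.13). Several values passed the threshold only under an alternative. The limma alternative also scaled by library totals, so it and the library-total alternative are not separate checks. The mean difference of miR-124-3p passed with DESeq2 size factors (0.30), the DESeq2 test (0.28), a shift of 2 h (0.32), no filter (0.44) and no shift (0.43), and in 26 of 30 fits without 1 library (0.26 to 0.39), but was 0.08 with library totals and 0.06 with limma. That of miR-234-3p passed with library totals (-0.70), limma (-0.46) and 4 h of shift (-0.62), and with single libraries left out ran from -0.55 to -0.33. In the mutant, the fall from the first to the last 3 hours passed with library totals and limma for lsy-6-3p (-0.99 and -0.86) and miR-234-3p (-1.13 and -0.80).

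The direction turned for values that passed no threshold. MiR-124-3p at aligned 25 to 29 h turned to -0.17 by library totals, -0.17 by limma and -0.072 if the mutant was moved by 4 h, and ran from -0.0017 to 0.29 without single libraries. MiR-791-3p differed by 0.0012 with no shift, and without a filter by 0.044 at 30 to 35 h and 0.067 at 36 to 39 h. With single libraries left out it ran from -0.37 to 0.044, -0.35 to 0.16 and -0.37 to 0.46 in the 3 windows. The calls of miR-791-5p in the first and middle windows were lost in 9 of 10 and 12 of 12 fits without 1 library, in which the filter and TMM factors were also redone.

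The median of all strands in the mean difference lay at -0.03 by TMM, moved to -0.23 by library totals and to 0.10 when no filter was used, which called 90 higher and 40 lower of 395. It ran from -0.03 to 0.03 in the fits that left out 1 library. The count of strands with a difference in course was 18, against 77 without a shift, 42 with a shift of 4 h and 34 with DESeq2. The middle window called 66, against 125 with library totals and 124 with limma, which shares that scaling. The WT rhythm test called 23, against 58 with DESeq2, 44 with a period of 8 h and 0 with 6 h. Depth limits miR-234-3p and miR-791-3p, with medians of 14.5 to 15.5 counts per library. The causes were not tested.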
